A study of Mus musculus with 25 samples.

Results

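The genes described here are 10 genes of the calcineurin and CaMKII signalling routes to cardiac hypertrophy, followed by RNA sequencing across 25 mouse hearts. They were chosen by symbol, with earlier results of these data known: Rcan1, Rcan2, Ppp3ca, Ppp3cb, Ppp3r1, Nfatc2, Nfatc3, Nfatc4, Camk2d and Mef2a. All 10 were found among the 56941 genes of the count table, and all 10 were among the 17682 genes that passed the filter on low counts. The hearts carried the label WT or MCT1KO and were taken without a pump, after saline or after Ang/PE. Per the design text, Ang/PE stands for neurohormonal agonists given to bring on hypertrophy. MCT1 is a transporter of lactate and other monocarboxylates, encoded by Slc16a1, and the study asks how lactate is handled in the growing heart. The 6 groups were WT without a pump (4 hearts), MCT1KO without a pump (3), WT saline (6), MCT1KO saline (4), WT Ang/PE (3) and MCT1KO Ang/PE (5). The promoter or Cre behind the deletion, the strain, sex and age of the mice, the doses and the infusion time are not given in the sources used here.

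Calcineurin is a calcium and calmodulin dependent phosphatase made of a catalytic subunit (Ppp3ca, Ppp3cb or Ppp3cc) and a calcium-binding regulatory subunit (Ppp3r1). It dephosphorylates NFAT transcription factors, which then enter the nucleus. Rcan1 and Rcan2 encode proteins that bind calcineurin and restrain it, and Rcan1 is itself a long-known NFAT target in heart muscle. CaMKII, whose main cardiac form is encoded by Camk2d, phosphorylates class II histone deacetylases and so frees MEF2 factors such as Mef2a. Both routes act largely through phosphorylation and protein location, which RNA counts do not measure.

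Library totals ran from 12216704 to 24880683 counts, and 8.87% to 18.4% of counts came from mitochondrially encoded genes. Markers of ventricular muscle were high in every heart, with a summed level of 29550 to 55450 CPM (counts per 1000000 counts of the library). The 3 atrial markers summed to at most 5.73 CPM in hearts without saline, to 2.04 to 1136 CPM in WT saline hearts and to 1.5 to 3679 CPM in MCT1KO saline hearts. The 5 adipocyte markers summed to at most 0.572 CPM outside the saline groups and reached 29.0 CPM in WT saline and 1069 CPM in MCT1KO saline replicate 4. Xist, a transcript of female cells, was present in 2 of 4, 0 of 3, 1 of 6, 3 of 4, 3 of 3 and 4 of 5 hearts of the 6 groups in the order given above. No difference in Slc16a1 counts between the hearts labelled MCT1KO and WT passed the test: the log2 difference from WT was -0.02 without a pump (adjusted p = 0.976), -0.33 with saline (adjusted p = 0.219) and -0.18 with Ang/PE (adjusted p = 0.807, all by edgeR's quasi-likelihood test). Counts over the whole gene do not check a deletion of part of it, so MCT1KO is used below only as the deposited label.

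Rcan1 and Camk2d are the members whose highest heart was an Ang/PE heart in both genotypes, and the bases before their start sites are shown for that reason. RefSeq gives Rcan1 an upstream and an internal start. The internal start is the one known for its response to calcineurin and NFAT. The sequences are those of the 250 bases before each RefSeq start on assembly GRCm38.p6, 5′ to 3′ on the gene's strand, with the NFAT core GGAAA, or TTTCC where it lies on the other strand, in capitals. The windows are chr16:92466170-92466419 on the minus strand, chr16:92400079-92400328 on the minus strand and chr3:126596701-126596950 on the plus strand.
Rcan1 upstream start: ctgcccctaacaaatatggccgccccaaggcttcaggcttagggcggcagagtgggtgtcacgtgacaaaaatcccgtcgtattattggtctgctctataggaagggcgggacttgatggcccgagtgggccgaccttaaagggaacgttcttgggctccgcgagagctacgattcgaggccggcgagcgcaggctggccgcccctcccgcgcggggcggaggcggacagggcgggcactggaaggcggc
Rcan1 internal start: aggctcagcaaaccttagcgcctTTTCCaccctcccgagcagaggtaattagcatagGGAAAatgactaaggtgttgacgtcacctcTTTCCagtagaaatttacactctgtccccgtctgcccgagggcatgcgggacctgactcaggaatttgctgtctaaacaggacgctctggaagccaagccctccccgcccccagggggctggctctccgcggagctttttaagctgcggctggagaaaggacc
Camk2d start: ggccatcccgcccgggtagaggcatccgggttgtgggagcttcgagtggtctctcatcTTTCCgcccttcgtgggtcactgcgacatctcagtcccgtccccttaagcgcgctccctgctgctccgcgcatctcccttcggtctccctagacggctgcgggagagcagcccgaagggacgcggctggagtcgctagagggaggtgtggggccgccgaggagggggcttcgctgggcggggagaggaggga
The window before the internal start of Rcan1 held 3 such matches, that before its upstream start held 0, and that of Camk2d held 1. Of 32851 windows of the same length in the RefSeq table, 55.6% held at least 1 match and 6.4% held 3 or more. A match is a run of letters, not a shown binding site. Across the members, 9 of 10 genes had an entry, and 8 of their 14 windows held a match. Those of Ppp3cb and Nfatc4 and the first of Nfatc2 held 3 each, and the first of Rcan2 held 2. Ppp3ca had no entry. The deposited counts are per gene, so reads from the 2 Rcan1 starts cannot be told apart.

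Between genes, levels can be compared only per length. Over all 25 hearts, Rcan2 had the highest mean level at 86.9 CPM per kilobase of exon, followed by Rcan1 at 38.5. Mef2a (15.7), Ppp3r1 (14.4) and Camk2d (11.2) lay in the middle, on the same scale. Ppp3cb (7.97), Ppp3ca (6.14), Nfatc3 (3.53), Nfatc2 (3.02) and Nfatc4 (1.69) were lowest. The order in the middle depends on which length is used: per kilobase of the longest transcript Camk2d stood at 45.6 and Mef2a at 41.7 CPM, above Ppp3cb (18.3) and Ppp3r1 (16.3). The smallest count of any member in any heart was 97, for Nfatc4, and the largest of these smallest counts was 3968, for Rcan2.

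Across 11 comparisons, 1 member passed the threshold of an adjusted p below 0.05 in 1 comparison: Rcan1 rose with Ang/PE against saline in MCT1KO hearts. In that comparison 1 of 10 members was called, against 4.46% of all tested genes, and 3 members had an unadjusted p below 0.05, as did 20.4% of all tested genes. None of the 10 was called in the other 10 comparisons by edgeR's quasi-likelihood test. In these, the called share of all tested genes stood at 0.017% in WT hearts given Ang/PE rather than saline, 6.61% for saline against no pump in WT, 0.00566% for the same step in MCT1KO and 0% for Ang/PE against no pump in WT. It was 0.503% for Ang/PE against no pump in MCT1KO, 0% for each of the 3 comparisons of MCT1KO with WT, 0% for the interaction of genotype with Ang/PE and 0.00566% for that of genotype with saline. At an unadjusted p below 0.05 there were 1, 1, 2, 2 and 3 members in the first 5 of these comparisons, beside 19.1%, 24.3%, 12.1%, 9.02% and 13.1% of all tested genes. There were 1, 1 and 0 for MCT1KO against WT without a pump, with saline and with Ang/PE, beside 12.2%, 17% and 6.92% of all genes, and 1 for each interaction, beside 13.5% with Ang/PE and 17.2% with saline. DESeq2 called 1 member in 5 of these 10 comparisons and 0 in the other 5. It called Rcan1 in WT Ang/PE against saline and in MCT1KO Ang/PE against no pump, and Ppp3ca in MCT1KO against WT without a pump, in WT saline against no pump and in the interaction of genotype with saline. Of the genes to which DESeq2 gave an adjusted p, it called 4.11%, 2.53%, 2.4%, 13.7% and 3.05% in these 5 comparisons, in the order named. In the comparison where edgeR called Rcan1, DESeq2 called Rcan1 and Rcan2, and 6.93% of all such genes. In the plot of fitted changes by gene, Rcan1 with Ang/PE stands away from 0 and the other members lie close to it.

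**Figure D1:**
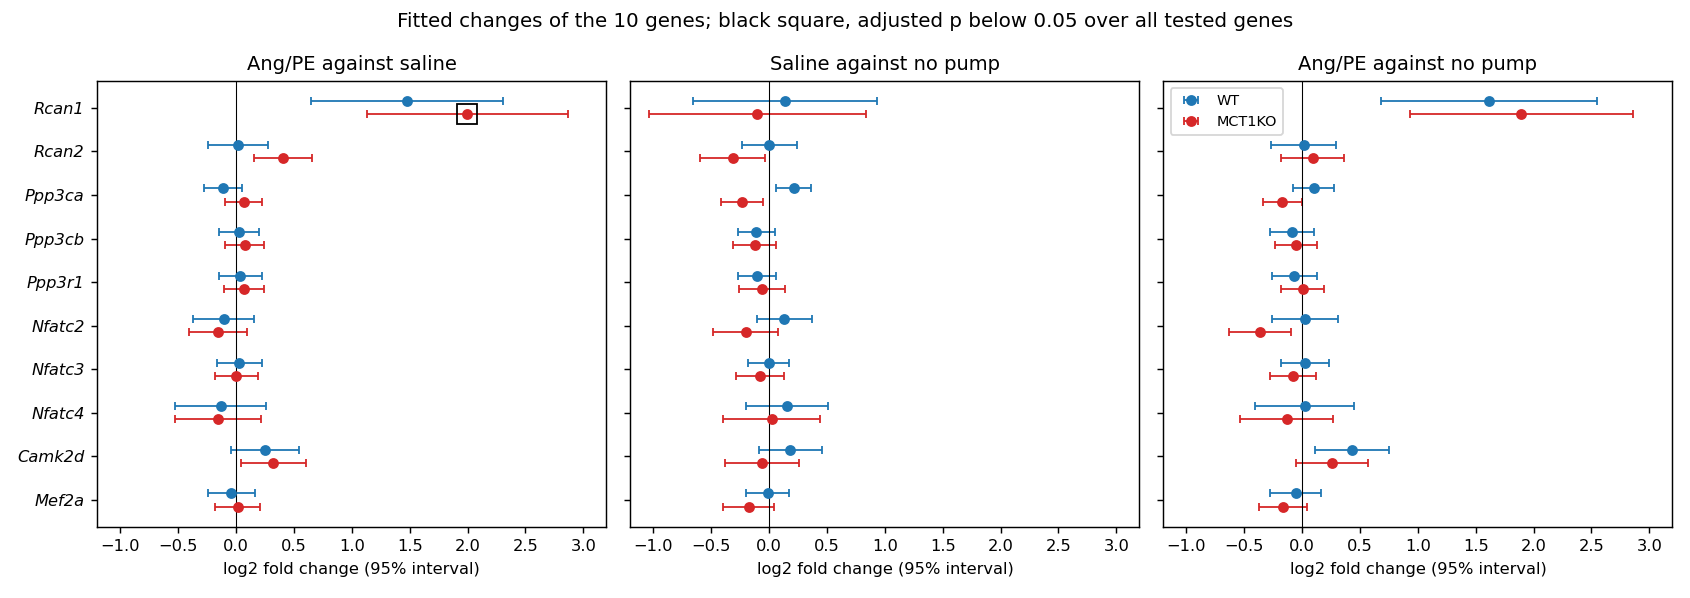
Fitted log2 fold change (x axis, point, with its 95% interval as a bar) of each of the 10 genes (y axis) in the 3 treatment steps, WT in blue and MCT1KO in red. The black square marks Rcan1 in MCT1KO hearts, Ang/PE against saline (log2 fold change 2.00), the only member with an adjusted p below 0.05.

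Rcan1 encodes regulator of calcineurin 1. Its level in MCT1KO saline hearts was 64.0, 68.3, 67.0 and 37.8 CPM, and in MCT1KO Ang/PE hearts 379.5, 277, 162, 186 and 178 CPM. The groups did not overlap: the lowest Ang/PE heart was above the highest saline heart. The mean was 237 ± 91.6 CPM (SD, n = 5) after Ang/PE and 59.3 ± 14.4 CPM (n = 4) after saline, a fitted 3.99-fold rise (log2 fold change 2.00, SE 0.42, adjusted p = 0.0141, edgeR's quasi-likelihood test with Benjamini-Hochberg adjustment). This call was lost without MCT1KO saline replicate 4, the heart with the lowest Rcan1 and the highest adipocyte markers, where the log2 fold change was 1.83 (adjusted p = 0.0887). It was also lost with only these groups in the fit (1.98, adjusted p = 0.0700) and with the atrial and adipocyte marker levels as covariates (1.73, adjusted p = 0.534). The part of these markers in the change was not tested. Against hearts without a pump, a step that differs by the pump as well, the MCT1KO rise missed the threshold in edgeR. Those MCT1KO hearts stood at 67.9, 58.5 and 64.5 CPM, again below every MCT1KO Ang/PE heart, with a log2 fold change of 1.89 (SE 0.46, adjusted p = 0.0716). Of all tested genes, 5.42% had no overlap in MCT1KO Ang/PE against saline and 8.45% in MCT1KO Ang/PE against no pump.

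In WT hearts the picture rested on 1 animal. WT Ang/PE hearts had 76.9, 90.1 and 464 CPM of Rcan1. WT saline hearts had a lowest value of 55.1, a median of 79.7 and a highest of 91.7 CPM, and WT hearts without a pump had 94.8, 60.4, 58.1 and 61.1 CPM. Replicates 1 and 2 of WT Ang/PE therefore lay inside the range of the WT saline hearts, and replicate 3 was the highest of all 25 hearts. With all hearts the log2 fold change against saline was 1.48 (SE 0.40, adjusted p = 0.0775), and without replicate 3 it was 0.16 (adjusted p = 0.908). DESeq2 gave 1.48 with an adjusted p of 0.0285 on all hearts. The same heart also had the most Nppb and Myh7, the natriuretic peptide and fetal myosin genes used as hypertrophy markers, of the 3 WT Ang/PE hearts. Nppb was at 159, 229 and 855 CPM in replicates 1 to 3, and Myh7 at 643, 356 and 1458 CPM. In MCT1KO Ang/PE the heart with the most Rcan1, replicate 1, led for neither: Nppb was at 425, 805, 281, 388 and 441 CPM and Myh7 at 937, 3865, 1435, 639 and 4667 CPM in replicates 1 to 5.

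No difference in Rcan1 between MCT1KO and WT hearts passed the test. The mean after Ang/PE was 237 ± 91.6 CPM (SD, n = 5) in MCT1KO and 210 ± 220 CPM (SD, n = 3) in WT, a log2 difference of 0.17 (95% interval -0.72 to 1.06, adjusted p = 0.956, edgeR's quasi-likelihood test). The interaction of genotype with Ang/PE was 0.52 on the log2 scale (95% interval -0.68 to 1.72, adjusted p = 0.714). Without WT Ang/PE replicate 3 the difference was 1.49 (unadjusted p = 0.000136, adjusted p = 0.414) and the interaction 1.83 (unadjusted p = 0.00013, adjusted p = 0.511). In hearts without Ang/PE the log2 difference of MCT1KO from WT was -0.11 without a pump (adjusted p = 0.949) and -0.35 with saline (adjusted p = 0.671). The plot of Rcan1, Rcan2 and Camk2d by heart shows the wide spread of Rcan1 among the Ang/PE hearts.

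**Figure D2:**
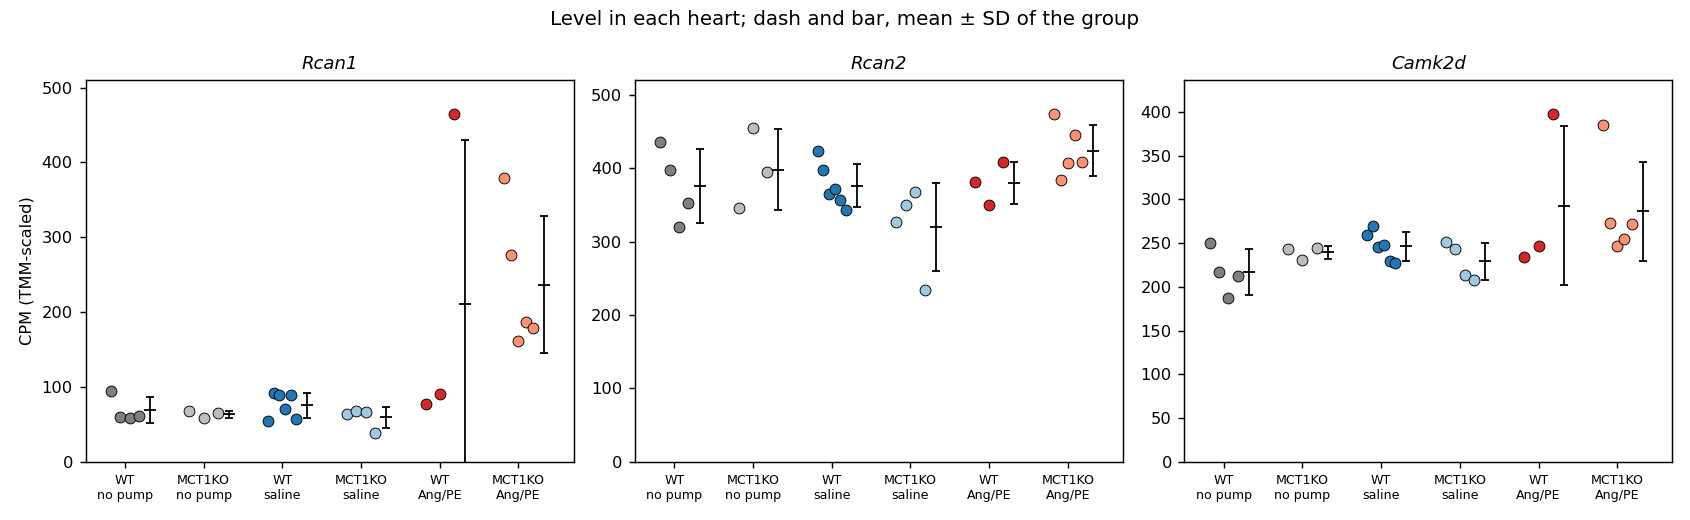
Level in CPM (y axis, from 0) of Rcan1, Rcan2 and Camk2d in each heart (points, in replicate order) of the 6 groups (x axis), with the group mean and SD beside the points. The 5 MCT1KO Ang/PE hearts sit at 162 to 379.5 CPM of Rcan1, WT Ang/PE replicate 3 at 464 CPM, and every heart without Ang/PE at or below 94.8 CPM; the SD bar of WT Ang/PE runs below the axis.

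Rcan2 encodes a calcineurin regulator of the same family. It stood at 327, 351, 368 and 234 CPM in MCT1KO saline hearts and at 474, 385, 408, 445 and 409.5 CPM in MCT1KO Ang/PE hearts. All Ang/PE hearts were above all saline hearts, in a comparison where 5.42% of all tested genes had no overlap. The fitted log2 difference was 0.41 (SE 0.12) and missed the threshold (adjusted p = 0.0525, edgeR's quasi-likelihood test), with an adjusted p from 0.0184 to 0.893 over the alternatives. Without MCT1KO saline replicate 4 it was 0.28 (adjusted p = 0.25), and with the atrial and adipocyte levels as covariates it was 0.11 (adjusted p = 0.893). In WT hearts the same step gave 0.01 (SE 0.13, adjusted p = 0.969): WT Ang/PE hearts had 381, 351 and 408 CPM and WT saline hearts 343 to 424 CPM with a median of 369. The interaction was 0.39 (SE 0.17, unadjusted p = 0.0335, adjusted p = 0.342). It was 0.26 without MCT1KO saline replicate 4 (adjusted p = 0.565) and 0.24 with the atrial and adipocyte covariates (adjusted p = 0.928).

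Against hearts without a pump, no difference in Rcan2 passed the test. MCT1KO hearts without a pump had 346, 455 and 395 CPM, which overlapped the MCT1KO Ang/PE hearts, and the log2 difference was 0.09 (SE 0.13, adjusted p = 0.848). WT hearts without a pump had 436, 397, 320 and 353 CPM. From no pump to saline the log2 difference in MCT1KO hearts was -0.32 (SE 0.14, unadjusted p = 0.028, adjusted p = 0.345), so that the saline hearts had the lowest mean of the MCT1KO groups. Without MCT1KO saline replicate 4 it was -0.19 (adjusted p = 0.771), without replicate 2 of the MCT1KO hearts without a pump -0.21 (unadjusted p = 0.182), and with the atrial and adipocyte levels as covariates -0.0085 (adjusted p = 1). Across the 25 hearts the log2 level of Rcan2 had a Pearson r of 0.80 with the mean log2 level of the ventricular markers. With that of the adipocyte markers r was -0.74, and these values share the libraries and their scaling. The part of these markers in the difference was not tested. In bulk RNA, fewer muscle cells in a sample and less Rcan2 RNA per cell cannot be told apart.

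Among the catalytic subunits, Ppp3ca encodes calcineurin A alpha. In hearts without a pump its level was 64.1, 51.7, 51.1 and 56.9 CPM in WT and 61.9, 74.5 and 68.4 CPM in MCT1KO. The groups overlapped through WT replicate 1. The log2 difference was 0.29 (SE 0.09, unadjusted p = 0.00281, adjusted p = 0.227, edgeR's quasi-likelihood test), and DESeq2 gave 0.29 with an adjusted p of 0.0497. After saline the order was the opposite, with 54.9, 55.2, 56.1 and 65.9 CPM in MCT1KO and 57.2 to 66.9 CPM with a median of 66.5 in WT, and a log2 difference of -0.16 (unadjusted p = 0.0384, adjusted p = 0.27).

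The saline step of Ppp3ca therefore had opposite signs in the genotypes. It was 0.21 in WT (SE 0.07, adjusted p = 0.0785) and -0.23 in MCT1KO (SE 0.09, adjusted p = 0.269). The interaction was -0.45 (SE 0.11, unadjusted p = 0.000592) and missed the threshold in edgeR (adjusted p = 0.122), while DESeq2 gave -0.45 with an adjusted p of 0.0204. Without WT replicate 1 of the hearts without a pump, edgeR gave -0.51 with an adjusted p of 0.0238. That heart had no Xist, and neither had any MCT1KO heart without a pump, so leaving it out made these groups less alike in Xist. Over all the alternatives, by edgeR or DESeq2, the adjusted p of the interaction ran from 0.0204 to 0.427, and 3 passed the threshold. With Xist as a covariate the interaction was -0.21 (unadjusted p = 0.0563, adjusted p = 0.412), and the number of hearts with Xist in each group is given above. In the same fit the saline step was 0.13 in WT (adjusted p = 0.19) and -0.07 in MCT1KO (adjusted p = 0.764). The difference of MCT1KO from WT was then 0.17 without a pump (adjusted p = 0.585) and -0.04 with saline (adjusted p = 0.797). In each group that held hearts with and without Xist, every heart without it had more Ppp3ca than every heart with it. In WT hearts without a pump those without Xist had 64.1 and 56.9 CPM and those with it 51.7 and 51.1 CPM. The cause was not tested. After Ang/PE the hearts were tightly placed, at 59.6, 59.8 and 60.4 CPM in WT and 57.4 to 64.1 CPM in MCT1KO.

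Ppp3cb, calcineurin A beta, is the catalytic form most tied to cardiac growth in mouse knockouts. Its group means ran from 65.0 ± 5.02 CPM (SD, n = 4) in MCT1KO saline to 76.0 ± 4.45 CPM (n = 4) in WT without a pump. No comparison of Ppp3cb had an unadjusted p below 0.05. In the step from saline to Ang/PE its log2 change was 0.02 in WT (95% interval -0.15 to 0.20) and 0.07 in MCT1KO (95% interval -0.09 to 0.24). Ppp3r1, the regulatory subunit gene among the members, varied as little, with group means of 44.4 to 49.4 CPM and log2 changes with Ang/PE of 0.04 in WT and 0.07 in MCT1KO. The WT heart without a pump with the most Ppp3r1 had 61.4 CPM, and the other hearts lay between 41.2 and 49.7 CPM.

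With the catalytic gene Ppp3cc added from the pathway list, the make-up of the catalytic transcripts could be set out per length of exon. Over the 25 hearts Ppp3ca made up 27.5% ± 2.64 (SD), Ppp3cb 35.6% ± 1.88 and Ppp3cc 36.9% ± 2.99. On the length of the longest transcript Ppp3cc was the smallest at 24.1% and Ppp3cb the largest at 44.5%, so the order of the 3 depends on the transcripts in use. The share of Ppp3ca was 24.3% ± 1.37 (n = 4) in WT and 29.7% ± 2.35 (n = 3) in MCT1KO hearts without a pump, as a description of the same difference as above. It lay between 26.0% and 29.0% on average in the other groups.

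**Figure D3:**
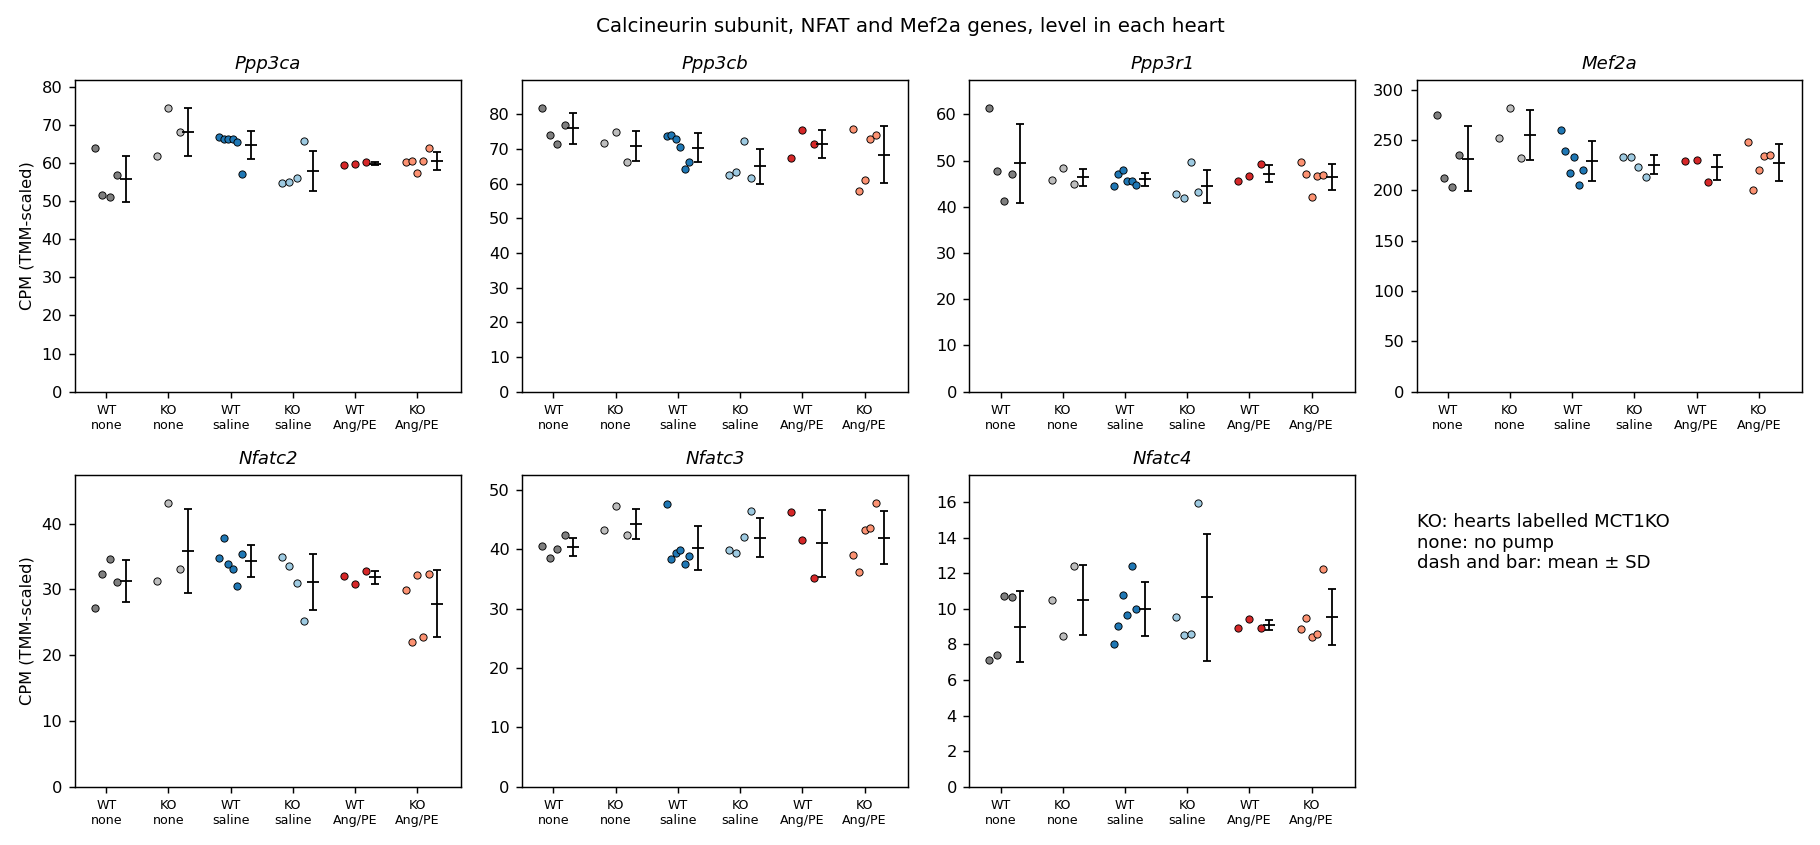
Level in CPM (y axes, from 0) of the 3 calcineurin subunit genes, 3 NFAT genes and Mef2a in each heart (points) of the 6 groups (x axes), with mean and SD. For Ppp3ca the order of WT and MCT1KO switches between hearts without a pump (means 56.0 and 68.3 CPM) and saline hearts (64.9 and 58.0 CPM). The order of the means also switches for Nfatc2 (31.3 and 35.8, then 34.3 and 31.1 CPM) and Mef2a (231 and 255, then 229 and 225 CPM). For none of Ppp3ca, Nfatc2 and Mef2a did the interaction of genotype with saline pass edgeR's quasi-likelihood test (adjusted p = 0.122, 0.34 and 0.566).

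Nfatc2, Nfatc3 and Nfatc4 encode NFAT factors that calcineurin activates, Nfatc3 and Nfatc4 being those most studied in heart growth. Nfatc3 had group means of 40.3 to 44.3 CPM. Its values without a pump did not overlap between the genotypes, at 38.6 to 42.4 CPM in WT and 42.5 to 47.2 CPM in MCT1KO, but the log2 difference of 0.13 had an adjusted p of 0.629 (edgeR's quasi-likelihood test). Of all tested genes, 11.5% had no overlap there, against 1 of 10 members. Nfatc3 changed with Ang/PE against saline by 0.03 in WT and 0.00 in MCT1KO on the log2 scale, neither past the test.

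Nfatc4 was the least abundant member. Its group means were 8.99 to 10.6 CPM, and the highest single heart was MCT1KO saline replicate 4 with 15.9 CPM. Across the 25 hearts its log2 level had an r of 0.70 with the smooth muscle markers and of 0.68 with the fibroblast markers, against -0.64 with the ventricular markers. The largest log2 difference of Nfatc2 was between MCT1KO Ang/PE (27.9 ± 5.09 CPM, n = 5) and MCT1KO hearts without a pump (35.8 ± 6.36 CPM, n = 3), at -0.36 (SE 0.13, unadjusted p = 0.0103, adjusted p = 0.207). Those groups overlapped, with 21.99 to 32.4 CPM after Ang/PE and 31.3 to 43.1 CPM without a pump. Without replicate 2 of the MCT1KO hearts without a pump the difference was -0.22 (adjusted p = 0.77).

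Camk2d encodes CaMKII delta. MCT1KO Ang/PE hearts had 385, 274, 247, 254 and 272 CPM, and MCT1KO saline hearts 251, 244, 214 and 208 CPM. WT Ang/PE hearts had 235, 247 and 397 CPM, against 227 to 269 CPM with a median of 246 in WT saline. In each genotype 1 Ang/PE heart stood well above the rest, WT replicate 3 and MCT1KO replicate 1, the same hearts that led for Rcan1. The log2 difference from saline was 0.32 in MCT1KO (SE 0.14, unadjusted p = 0.028, adjusted p = 0.182) and 0.25 in WT (SE 0.14, adjusted p = 0.345, edgeR's quasi-likelihood test). Without MCT1KO Ang/PE replicate 1 the former was 0.18 (adjusted p = 0.49), and without WT Ang/PE replicate 3 the latter was -0.02 (adjusted p = 0.98).

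Against hearts without a pump, at 250, 217, 188 and 212 CPM in WT and 243, 231 and 244 CPM in MCT1KO, the log2 differences with Ang/PE were 0.43 in WT and 0.26 in MCT1KO. The first had an unadjusted p of 0.00975 and an adjusted p of 0.454, and was 0.16 without WT Ang/PE replicate 3. The MCT1KO difference was 0.13 without MCT1KO Ang/PE replicate 1 (adjusted p = 0.775). The MCT1KO groups did not overlap in this comparison, though only by a few CPM. Of all tested genes, 8.45% had no overlap there. Mef2a, a target of the CaMKII and histone deacetylase branch, had group means of 223 to 255 CPM and no unadjusted p below 0.05. Its log2 change from saline to Ang/PE was -0.04 in WT (95% interval -0.24 to 0.16) and 0.01 in MCT1KO (95% interval -0.18 to 0.21).

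Rcan1 and Camk2d varied together from heart to heart, as the scatter of the pair shows. Their log2 levels had the highest Pearson r of the 45 pairs of members, 0.84 over 25 hearts (permutation p = 1e-05, the smallest that 100000 permutations can give, adjusted p = 0.00045), with Spearman's rho 0.73 (permutation p = 5e-05, adjusted p = 0.00225). Without the 2 hearts farthest in Rcan1, WT Ang/PE replicate 3 and MCT1KO Ang/PE replicate 1, r was 0.64 (permutation p = 0.00131). Within the 8 Ang/PE hearts r was 0.88 (exact permutation p = 0.0036) and rho 0.95 (exact permutation p = 0.00114), and r was 0.80 without the 2 farthest of these. Within the 17 other hearts r was 0.52 (permutation p = 0.0308) and rho 0.49 (permutation p = 0.0471), and r was 0.40 without the 2 farthest. These subsets were looked at because the pair had the highest r, so their p-values are not independent of that choice.

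**Figure D4:**
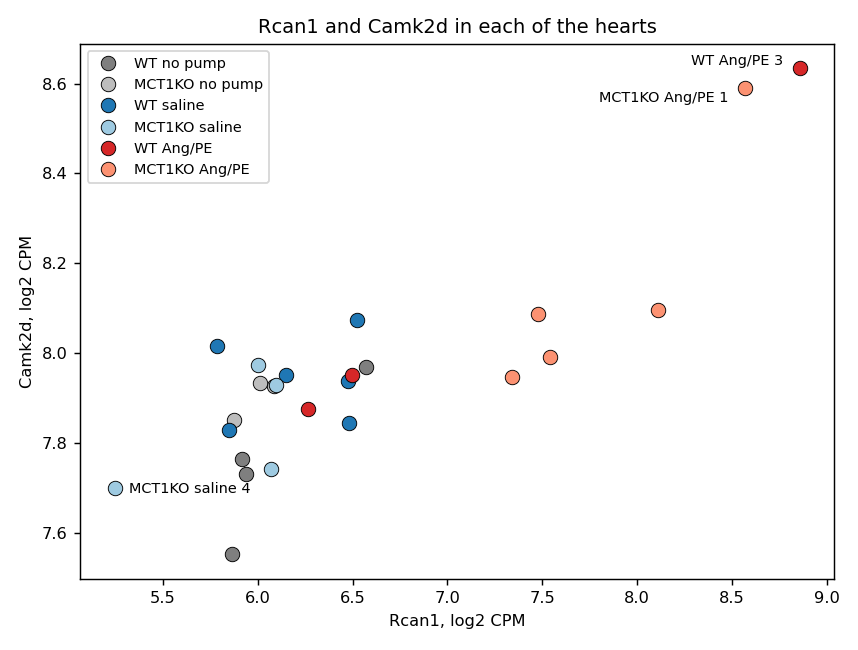
Log2 CPM of Rcan1 (x axis) and Camk2d (y axis) in each of the 25 hearts, coloured by group. WT Ang/PE replicate 3 and MCT1KO Ang/PE replicate 1 lie apart at the upper right, and r was 0.64 without them.

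In 4 of the 45 pairs, Rcan1 with Camk2d among them, the adjusted p of r was below 0.05. Ppp3cb and Ppp3r1 had an r of 0.64 (permutation p = 0.00038, adjusted p = 0.00855) and a rho of 0.68 (permutation p = 0.0003, adjusted p = 0.00675), with r 0.71 without the 2 farthest hearts. Ppp3ca, the other catalytic subunit among the members, had an r of 0.27 with Ppp3r1 (permutation p = 0.188, adjusted p = 0.368). Ppp3cb and Mef2a had an r of 0.56 (permutation p = 0.00289, adjusted p = 0.0325) and a rho of 0.59 (permutation p = 0.00272, adjusted p = 0.0271), with r 0.48 without the 2 farthest. The mitochondrially encoded share of counts had an r of 0.77 with Ppp3cb, 0.51 with Ppp3r1 and 0.45 with Mef2a. The part of this share in the correlations was not tested. Rcan2 and Nfatc4 had an r of -0.66 (permutation p = 0.00066, adjusted p = 0.0099) and a rho of -0.58 (permutation p = 0.00301, adjusted p = 0.0271). Their r was -0.45 without the 2 farthest hearts, and the pair also differed in sign in its relation to the ventricular markers given above. Within groups, after taking out the group means, the r of these 4 pairs was 0.85, 0.58, 0.69 and -0.81 in the order named. All hearts were kept for these values, MCT1KO saline replicate 4 among them. For Rcan2 and Nfatc4, r was -0.18 within the 8 Ang/PE hearts and -0.745 within the 17 others.

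Among 11649 well-measured genes with a symbol, those most like each member over the 25 hearts were picked by Pearson's r of log2 CPM. For Rcan1 they were Enah (0.961), Uck2 (0.954) and Xirp2 (0.950), and for Camk2d Flnc (0.939), Klhl41 (0.931) and Txnrd1 (0.915). Enah, Xirp2 and Flnc encode proteins of the actin cytoskeleton and its attachment sites. For Rcan2 they were Lpl (0.931), the lipase that frees fatty acids from lipoproteins, Homer2 (0.921) and Inpp5a (0.912). Among the subunits, Ppp3ca was nearest to Zfp652 (0.892), Usp24 (0.838) and Ttc39b (0.822), Ppp3cb to Synj2bp (0.878), Acadsb (0.848) and mt-Rnr2 (0.844), and Ppp3r1 to Rnf11 (0.901), Rdx (0.830) and Btbd1 (0.816). The nearest genes of Nfatc2 were Usp2 (0.770), Rcor3 (0.747) and Mid1ip1 (0.743), those of Nfatc3 were Kmt2e (0.795), Nudt12 (0.791) and Thap2 (0.771), and those of Nfatc4 were Kirrel (0.848), Ninl (0.846) and Kif13b (0.826). Mef2a was nearest to Pde3a (0.798), Pitpnc1 (0.792) and Msi2 (0.776). The r of Ppp3cb with the mitochondrially encoded share of counts was 0.77, and mt-Rnr2 is itself mitochondrially encoded.

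The wider routes were read from a list for each. The calcineurin and NFAT list held 21 other genes, of which 19 were tested (Ppp3r2 and Myoz1 were not), and the CaMKII and MEF2 list held 17, of which 15 were tested (Camk4 and Mef2b were not). In the step from saline to Ang/PE none of the 19 was called in either genotype, with 6 in WT and 5 in MCT1KO at an unadjusted p below 0.05 by edgeR. DESeq2 called 2 of them in WT and 1 in MCT1KO. Of all tested genes, edgeR called 0.017% in WT and 4.46% in MCT1KO, and 19.1% and 20.4% had an unadjusted p below 0.05. DESeq2 called 4.11% and 6.93% of the genes to which it gave an adjusted p. The median log2 change of the 19 was 0.07 in WT and 0.09 in MCT1KO, against -0.01 over all genes in both. Of the 15, edgeR called none in WT (3 at an unadjusted p below 0.05, 1 by DESeq2) and 1 in MCT1KO (2 at an unadjusted p below 0.05, 1 by DESeq2). The gene edgeR called in MCT1KO was Camk1d, a CaM kinase I gene, which fell by 1.98 on the log2 scale (SE 0.42, adjusted p = 0.0143). The median log2 change of the 15 was -0.13 in WT and 0.02 in MCT1KO. Camk1d was at 12.3, 16.03, 7.37 and 56.3 CPM in MCT1KO saline and at 5.24 to 6.49 CPM in MCT1KO Ang/PE, and it was not called without MCT1KO saline replicate 4, which had the 56.3 CPM and the high adipocyte markers. Its level without a pump was 6.69 ± 0.08 CPM (n = 3) in MCT1KO.

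Between no pump and saline in WT hearts 10 of the list genes were called, 5 of 19 and 5 of 15, against 6.61% of all tested genes. DESeq2 called 6 and 5, against 13.7% of all genes with an adjusted p. In the calcineurin list 3 rose and 2 fell. Cabin1, a calcineurin inhibitor that also binds MEF2, rose by 0.36 (SE 0.08, adjusted p = 0.011), Akap5, a scaffold that holds calcineurin at membranes, by 1.23 (SE 0.33, adjusted p = 0.0323), and Gata4, an NFAT partner, by 0.57 (SE 0.17, adjusted p = 0.0454). Calm2, which encodes the calcium sensor calmodulin, fell by 0.64 (SE 0.11, adjusted p = 0.00797). It went from 67.4 ± 3.96 CPM (n = 4) without a pump to 43.3 ± 3.31 CPM (n = 6) with saline, with no overlap. Of all tested genes, 10.3% had no overlap in this step.

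In the CaMKII list all 5 called genes rose in this step. The other CaMKII genes Camk2a, Camk2b and Camk2g rose by 0.50, 0.60 and 0.38 on the log2 scale (adjusted p = 0.017, 0.0477 and 0.0387), Hdac4 by 0.46 (adjusted p = 0.038) and Mef2d by 0.43 (adjusted p = 0.029, edgeR's quasi-likelihood test). In MCT1KO hearts none of the 34 was called in the same step, with 0 and 6 at an unadjusted p below 0.05 (12.1% of all genes). DESeq2 called 1 there (1.18% of all genes with an adjusted p). The interaction called none in edgeR, with 5 and 10 at an unadjusted p below 0.05, and 6 in DESeq2. Of all genes, 17.2% had an unadjusted p below 0.05 in the interaction, and DESeq2 called 3.05% of the genes to which it gave an adjusted p. The interaction of Hdac4 was -0.83 (SE 0.20, unadjusted p = 0.000362, adjusted p = 0.112). In WT the log2 change of a gene in this step had a Spearman's rho of 0.41 with its GC content over 12815 genes. With offsets for GC and length, or with the atrial and adipocyte levels as covariates, 0 list genes were called. Over all the alternatives, between 0 and 2287 of all tested genes were called in this step, beside the reported 1168. The part of GC content and of the markers in these changes was not tested.

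**Figure D5:**
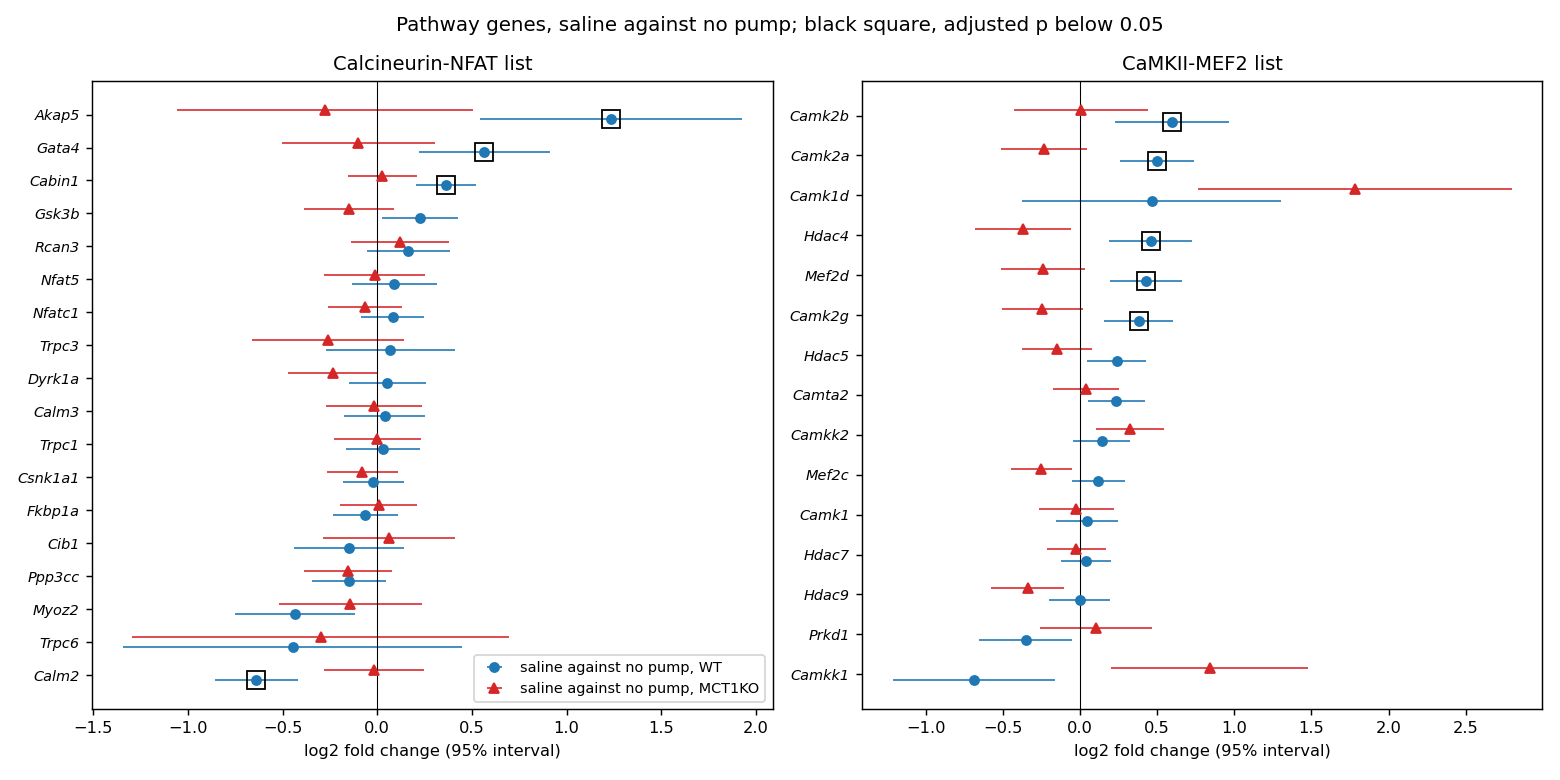
Fitted log2 fold change from no pump to saline (x axes, with 95% intervals as bars) of tested genes of the calcineurin and NFAT list (left, 18 genes drawn) and of the CaMKII and MEF2 list (right, 15 genes), WT as blue circles and MCT1KO as red triangles. Black squares mark the 4 and 5 drawn genes with an adjusted p below 0.05, all in WT.

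In the 3 comparisons of MCT1KO with WT none of the 34 list genes was called by edgeR. At an unadjusted p below 0.05 there were 6 of 19 and 6 of 15 without a pump, 1 and 6 with saline, and 2 and 0 with Ang/PE, beside 12.2%, 17% and 6.92% of all tested genes. DESeq2 called 2, 0 and 0 of the 34, and 2.4%, 0.799% and 0.0283% of all genes with an adjusted p. From no pump to Ang/PE none was called in WT (2 and 0 at an unadjusted p below 0.05) or in MCT1KO (2 and 3), and none in the interaction of genotype with Ang/PE (2 and 5), beside 9.02%, 13.1% and 13.5% of all tested genes. DESeq2 called 0, 1 and 0 of the 34 in these comparisons, and 0.24%, 2.53% and 0.12% of all genes with an adjusted p.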

How the data were processed

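Total RNA of 25 mouse hearts was depleted of ribosomal RNA and made into stranded libraries, per the labels' protocols. The authors deposited 1 table of raw counts per Ensembl gene. Per the submitters' processing notes, cutadapt 1.16, STAR 2.7.9a, featureCounts 1.6.3, DESeq2 1.42.1 and the build GRCm39 (mm39) were used. The annotation and the strand setting of the counting are not given in the sources used here, so reads of overlapping, antisense or near-identical genes may be misassigned. Columns were matched to samples by the titles, and 0 columns were left unmatched. Symbols were found for 51948 genes, and genes without one held 0.778% of the counts.

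Genes were filtered with filterByExpr, scaled by TMM and fitted in 1 model of 6 groups with edgeR 4.0.16 (robust quasi-likelihood, 19 residual degrees of freedom, limma 3.58.1, R 4.3.3). All tests were two-sided, with Benjamini-Hochberg adjustment over 17682 genes in each of 11 comparisons. The p-values set each difference between groups against the spread between these hearts within groups. CPM divides a count by its TMM-scaled library size and multiplies by 1000000. DESeq2 1.42.0 was an alternative, as were other filters, scalings, covariates, offsets for GC and length (mgcv 1.9.3) and leaving out each heart. Correlations were computed in Python 3.11.15 (numpy 2.4.6, scipy 1.17.1). The edgeR script was tested on simulated counts. No replicate pair differed by as little as sampling noise: the lowest chi-square per degree of freedom among 43 pairs was 3.33. Replicate numbers pair no animals in the labels.

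The text names the 10 members, the called genes of 2 pathway lists (1 is not reported here by name or value), the 3 genes most correlated with each member, and Slc16a1, Myh7 and Nppb. The members and lists were chosen with earlier results of these data known.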

Additional observations from a re-analysis of the deposited data

Results flagged for a closer look

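In groups of 4 or more hearts, the highest or lowest log2 CPM of each member was set against the rest by Dixon's test. Of 40 such groups, 7 held a heart that stood apart, where chance alone gives about 1 in 20, or 2. For Rcan1, WT replicate 1 without a pump was high at 6.57, with the others at 5.86 to 5.94, and MCT1KO saline replicate 4 was low at 5.25, with the others at 6.0 to 6.1. For Ppp3ca, WT saline replicate 6 was low at 5.84 (others 6.04 to 6.07) and MCT1KO saline replicate 4 was high at 6.04 (others 5.78 to 5.81). The first was the only WT saline heart with Xist (584.6 CPM), and the second the only MCT1KO saline heart without it (0.354 CPM). Ppp3cb was high in MCT1KO saline replicate 3 at 6.18 (others 5.95 to 5.98), and Nfatc3 was high in WT saline replicate 1 at 5.58 (others 5.23 to 5.32). Camk2d was high in MCT1KO Ang/PE replicate 1 at 8.59 (others 7.95 to 8.1). WT Ang/PE, with 3 hearts, was too small for this test.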

How the results depend on the processing

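Of 396 counts of called members under the alternatives, 374 matched the reported count within 1.5 times and 22 did not. The reported count was 0 in every comparison but Ang/PE against saline in MCT1KO, where 27 alternatives matched and 9 did not. DESeq2 called 1 member, in place of 0, in MCT1KO against WT without a pump, in Ang/PE against saline in WT, in saline against no pump in WT, in Ang/PE against no pump in MCT1KO and in the interaction of genotype with saline. The non-robust fit also called 1 in Ang/PE against no pump in MCT1KO. In Ang/PE against saline in MCT1KO the reported 1 became 0 with only the groups compared and with the atrial and adipose scores as covariates, and 2 with the non-robust fit, with the GC and length offsets, with these and the replicate block together, and with DESeq2. Leaving out each heart gave 0 to 2 there and 0 to 1 in Ang/PE against saline in WT, saline against no pump in WT, Ang/PE against no pump in MCT1KO and the interaction with saline. Ppp3ca turned sign in Ang/PE against no pump in MCT1KO with Xist as a covariate, from -0.17 to 0.0012, and the cause was not tested.

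The replicate numbers share only a number: the deviations of 52 same-numbered pairs of hearts had a mean correlation of 0.0094 (-0.232 to 0.405). With the replicate block the log2 fold change of Rcan1 in Ang/PE against saline in MCT1KO was 2.05 (edgeR adjusted p = 0.0286), and 3 genes of each pathway list, in place of 5, were called in saline against no pump in WT.

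Over all genes, the reported 788 calls of Ang/PE against saline in MCT1KO ranged from 0 to 1541 and the 1168 of saline against no pump in WT from 0 to 2287 over the alternatives. The latter was 60 at the lowest when 1 heart was left out. The calls on the pathway lists in that step ranged from 0 to 6 and from 0 to 8. Groups of 3 to 6 hearts limit the precision, and the members' counts were 97 or more in every heart.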
